A study of Mus musculus with 35 samples.

Results

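The miRNA profiles of mouse liver at 15 days after a single dose of N-ethyl-N-nitrosourea (ENU) were compared with those at 7 days after the same dose. The arrays were chosen by their titles alone, which gave 5 livers of ENU day 15 and 5 livers of ENU day 7, 10 of the 35 arrays of the series, and every one of the 376 miRNA assays on each array was used. All 10 animals were female Big Blue Transgenic mice from Stratagene, 6 months old, which carry a phage shuttle vector for mutation assays, and all received ENU once at 120 mg/kg body weight by intraperitoneal injection. By their labels the animals differed only in the day of sampling, but the arrays of day 7 and day 15 were also run on different days. The 7 livers of mice given the vehicle DMSO (day 1 or day 30) stayed out of the fit and are quoted as background levels. Each liver was read on 1 PCR array, so the replicates are animals. A liver sample is a mixture of cells, so fewer cells of a type and less RNA per cell cannot be told apart.

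ENU is a direct alkylating agent that transfers ethyl groups to DNA bases and damages DNA without metabolic activation. miRNAs are short RNAs that pair with target mRNAs mainly through the seed, bases 2 to 8 from the 5′ end, and lower translation or stability of those mRNAs, so miRNAs with the same seed share many predicted targets. The miR-34 genes are direct targets of p53, the transcription factor activated by DNA damage, while miR-122 is the most abundant miRNA of hepatocytes.

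The mature sequences below belong to the miRNAs that the results turn on. They were taken from RefSeq (GRCm38.p6) and are written 5′ to 3′ with the seed in capitals. The first 7 are the 6 miRNAs that met the study's thresholds for a differentially expressed miRNA (DEM) when the p came from limma, 0 of which met them with the study's own test, and miR-377, which was the only miRNA with no overlap between the days with the reference RNAs (6 had none with the median Ct of the array as reference), and each of the 7 has a seed of its own.
miR-687 (mmu-miR-687): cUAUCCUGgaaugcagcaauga
miR-329 (mmu-miR-329-3p): aACACACCcagcuaaccuuuuu
miR-154* (mmu-miR-154-3p): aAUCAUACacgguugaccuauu
miR-764-3p (mmu-miR-764-3p): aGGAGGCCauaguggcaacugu
miR-880 (mmu-miR-880-3p): uACUCCAUccucucugaguaga
miR-125a-3p (mmu-miR-125a-3p): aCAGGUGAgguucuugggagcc
miR-377 (mmu-miR-377-3p): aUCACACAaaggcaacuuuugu

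The next 9 sequences show the 3 families described further on. The miR-130 and miR-301 members share the seed AGUGCAA, the miR-34 and miR-449 members share GGCAGUG, and miR-429 differs from miR-200a and miR-141 within the seed.
miR-130a (mmu-miR-130a-3p): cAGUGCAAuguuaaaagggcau
miR-130b (mmu-miR-130b-3p): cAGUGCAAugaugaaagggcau
miR-301a (mmu-miR-301a-3p): cAGUGCAAuaguauugucaaagc
miR-34a (mmu-miR-34a-5p): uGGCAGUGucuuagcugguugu
miR-34b-5p (mmu-miR-34b-5p): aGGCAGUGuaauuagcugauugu
miR-449a (mmu-miR-449a-5p): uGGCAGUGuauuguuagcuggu
miR-200a (mmu-miR-200a-3p): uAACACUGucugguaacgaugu
miR-141 (mmu-miR-141-3p): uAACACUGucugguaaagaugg
miR-429 (mmu-miR-429-3p): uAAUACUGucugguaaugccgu

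miR-687 lies at chr14:73206808-73206829 (minus strand) within the span of Rb1, miR-764-3p at chrX:147002324-147002345 (plus strand) within Htr2c, and miR-125a-3p at chr17:17830855-17830876 (plus strand) within Spaca6. miR-329, at chr12:109713541-109713562 (plus strand), and miR-154* and miR-377, at chr12:109738474-109738495 (plus strand) and chr12:109740553-109740574 (plus strand), belong to the imprinted Dlk1-Dio3 cluster, and the last 2 fall within the noncoding gene Mirg. miR-880 lies at chrX:66800540-66800561 (minus strand), with no other gene of the annotation over it. Only gene spans were compared, so exon and intron were not told apart.

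Levels are given as -ΔCt, the mean threshold cycle (Ct) of the 4 reference RNAs of an array (snoRNA251, snoRNA202, snoRNA142 and U6) minus the Ct of the miRNA. This is a log2 scale on which 1 unit is a 2-fold difference and a less negative value is a higher level. Levels of different miRNAs were not compared, because each assay has its own efficiency. miR-122, the hepatocyte marker, had the lowest mean Ct of the 376 assays (15.0 cycles), and 184 assays had a mean Ct above 30 cycles, where few template molecules reach the well. Across the 10 arrays 7 wells in 5 arrays gave no Ct and were treated as missing. All 5 day 7 arrays were run on 1 day and the 5 day 15 arrays on later days (4 on 1 day and replicate 5 on another), so the run day and the day after ENU cannot be told apart. No vehicle array shared a run day with either group, so for the vehicle levels run day and treatment cannot be told apart. Day 15 minus day 7, the Ct of the positive PCR control wells differed by -0.143 cycles (exact permutation test, p = 0.0238), and the gap between the 2 reverse transcription control wells of an array by -0.0367 cycles (exact permutation p = 0.524). The part of the positive PCR control in the results was not tested, and a fit with the gap between the reverse transcription wells as covariate is given beside the counts of miRNAs that met the rule of the study.

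Reference RNAs stood apart on 2 arrays. The mean reference Ct was 23.5 cycles in day 15 replicate 5, against 22.1 to 22.4 in the other 4 livers of that day. In day 7 replicate 2 it was 21.4 cycles, against 22.3 to 22.7 in its group. The same livers held the highest (-6.73) and the lowest (-8.07) median -ΔCt, and the array medians averaged -7.25 ± 0.32 at day 15 and -7.51 ± 0.36 at day 7 (SD, 5 livers each). The difference of 0.27 was within the spread between livers (exact permutation test, p = 0.294) and became -0.0018 without those 2 arrays. Since they hold the highest day 15 and the lowest day 7 median, leaving them out could only lower the difference. The value without them is therefore no check of it, and the counts without them given below are shifted in the same direction. A second reference, the median Ct of each array over the 192 assays whose mean Ct did not exceed 30, was therefore carried beside the first. The median difference of all miRNAs was 0.18 with the first reference and 0.06 with the second. A value near 0 follows from centring each array on its own miRNAs and does not tell whether the shift was real.

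**Figure D1:**
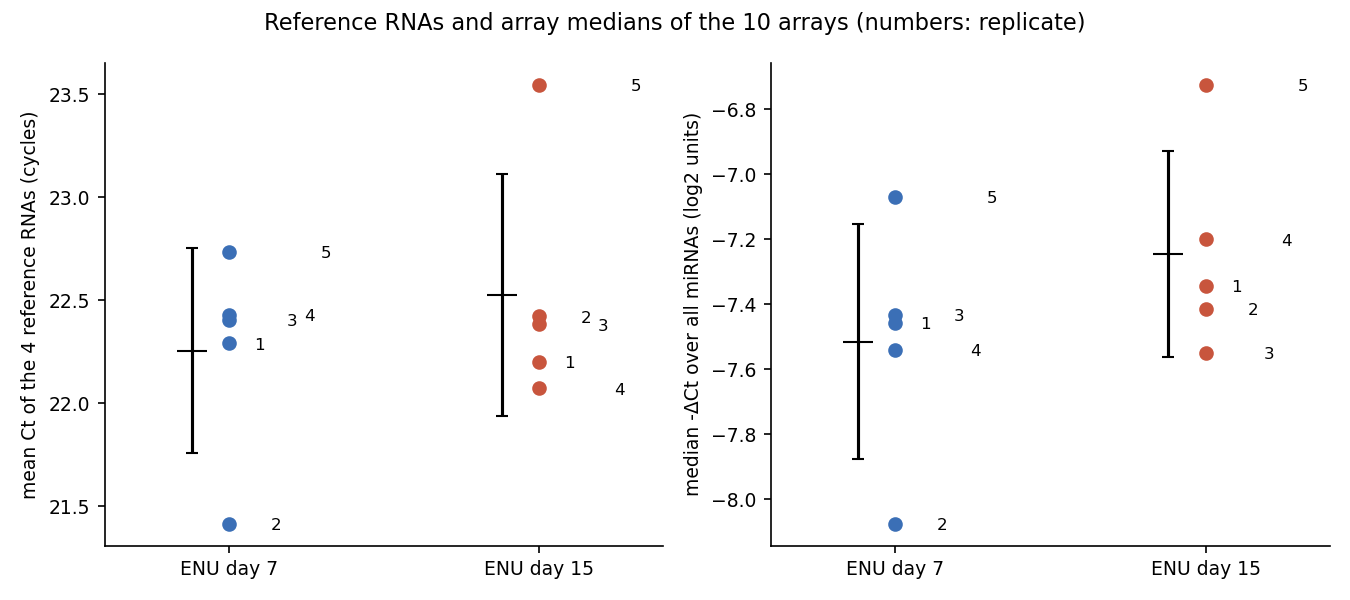
Mean Ct of the 4 reference RNAs (left, cycles) and median -ΔCt over all miRNAs (right, log2 units) in each of the 5 livers of ENU day 7 and ENU day 15. Points are livers with their replicate number and bars are mean ± SD. Day 7 replicate 2 (21.4 cycles) and day 15 replicate 5 (23.5 cycles) lie farthest from the rest on both axes.

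The miRNA profiles of the 2 days were about as far apart as those of livers sampled on the same day. None of the 376 miRNAs (0%) differed between day 15 and day 7 at an adjusted p below 0.05 (limma with Benjamini-Hochberg adjustment, lowest adjusted p 0.547). The methods' own test also gave 0 after adjustment (25 with an unadjusted p below 0.05). The exact permutation test for each miRNA gave 0 as well (26 with an unadjusted p below 0.05). Its smallest possible p of 0.00794 left almost no room to pass an adjustment over 376 miRNAs, so that 0 was close to fixed in advance. At an unadjusted p below 0.05 there were 24 miRNAs, 20 higher (5.32% of all assays) and 4 lower (1.06%) at day 15, and 20 of these 24 had a mean Ct above 30. Leaving out 1 liver gave from 13 higher and 1 lower (without day 7 replicate 1) to 34 higher and 0 lower (without day 7 replicate 5). Against the median Ct of the array 23 were higher (6.12%) and 7 lower (1.86%), with a lowest adjusted p of 0.368. Without snoRNA251 as a reference 39 were higher and 2 lower, and without the 2 arrays named above 10 were higher and 17 lower. The sign of the difference was positive for 270 miRNAs and negative for 106 with the reference RNAs, for 214 and 162 with the median Ct, and for 134 and 242 without the 2 arrays. By how they were set up, the median Ct pulls this split towards even, and leaving out the 2 arrays pulls it towards lower. Over single livers left out the split ran from 198 and 178 (without day 7 replicate 2) to 303 and 73 (without day 7 replicate 5).

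The intervals say how large a difference these livers could have hidden. The 95% interval of the difference lay within a 2-fold change in either direction for 145 of the 376 miRNAs, of which 132 were among the 192 assays not above 30 cycles. The number was 189 against the median Ct. Among the 184 assays above 30 cycles the number was 13, so for most of these the interval did not exclude a 2-fold difference. Over the 192 better measured miRNAs the distance between 2 arrays (median absolute difference in -ΔCt) was 0.36 for pairs of different days, against 0.50 within day 7 and 0.30 within day 15. Against the median Ct the 3 values were 0.28, 0.24 and 0.29.

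**Figure D2:**
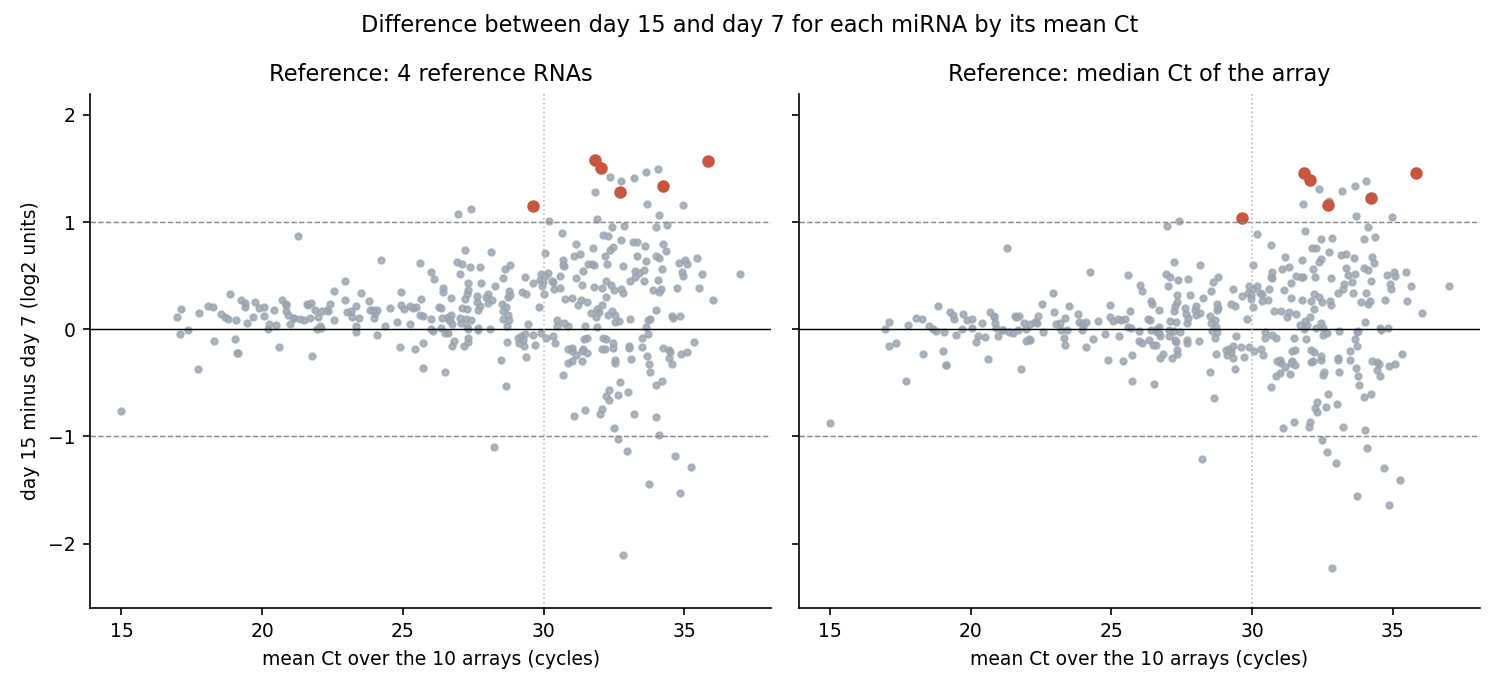
Difference in -ΔCt between day 15 and day 7 (log2 units) against the mean Ct over the 10 arrays (cycles) for each miRNA, with the 4 reference RNAs (left) and the median Ct of the array (right) as reference. Red points are the 6 miRNAs that met the DEM rule with the reference RNAs, dashed lines mark a 2-fold difference, and the dotted line marks 30 cycles. The differences widen above 30 cycles, where 5 of the 6 red points lie. miR-129-3p (5.01 on the left, 4.90 on the right) lies outside the axis.

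The DEM rule (the study's thresholds of an unadjusted p below 0.01 and a fold change above 2, here with limma's p) was met by 6 miRNAs, all higher at day 15 (1.60% of the assays): miR-687, miR-329, miR-154*, miR-764-3p, miR-880 and miR-125a-3p. With the methods' own test, which estimates the spread of each miRNA alone, 0 met it, and with the exact permutation test 1 did, miR-377. With the gap between the reverse transcription wells as covariate 4 met it, of which miR-687 was shared, miR-719 was also higher, and miR-196a and miR-380-3p were lower. Against the median Ct it was met by 4, of which 3 were shared (miR-687, miR-764-3p and miR-880) and the other, miR-196a, was lower at day 15 (-1.03). Without the 2 arrays, a setting that tends to lower the differences, 7 miRNAs met it, 6 of them lower at day 15, and only miR-329 was shared. Leaving out single livers gave between 1 and 10. The count was 1 without day 7 replicate 1, without day 7 replicate 3, without day 15 replicate 1 and without day 15 replicate 5. It was 3 without day 7 replicate 2 or day 15 replicate 4, and 10 without day 15 replicate 3.

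miR-687 had the lowest limma p of the 376 with the reference RNAs. Its -ΔCt in the 5 day 7 livers was -10.90, -10.97, -10.89, -11.40 and -10.67, and in the 5 day 15 livers -10.14, -10.89, -9.09, -9.48 and -8.84. Day 15 replicate 2 lay within the day 7 range and the other 4 lay above it. The mean difference was 1.28 ± 0.38 (SE), a 2.42-fold higher level, with a limma adjusted p of 0.547 and an exact permutation p of 0.0159. The vehicle livers averaged -10.60 ± 1.24 (SD, 7 livers), between the 2 days.

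miR-125a-3p, the passenger arm of miR-125a, was the only one of the 6 with a mean Ct below 30 (29.6). Its -ΔCt was -7.46, -7.96, -8.57, -8.04 and -7.06 at day 7 and -6.21, -6.07, -7.39, -7.29 and -6.38 at day 15. Day 7 replicate 5 lay above day 15 replicates 3 and 4, and the groups did not overlap with the median Ct as reference. The difference was 1.15 ± 0.37 (SE; 2.22-fold), with a limma adjusted p of 0.547 and an exact permutation p of 0.0317. Vehicle livers averaged -7.56 ± 1.00 (SD, 7 livers).

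miR-764-3p and miR-880 come from the X chromosome, and the mean of both lay below the vehicle mean on each day. miR-764-3p read -12.93, -13.85, -12.59, -11.78 and -11.47 at day 7 and -11.11, -11.21, -10.67, -11.61 and -11.32 at day 15, against -10.84 ± 0.71 in vehicle livers (SD, 7 livers). miR-880 read -14.24, -15.64, -14.42, -13.97 and -12.95 at day 7 and -12.51, -13.80, -12.72, -12.75 and -11.58 at day 15, against -10.84 ± 1.22 in vehicle livers (SD, 7 livers). In both cases the day 15 livers sat in the upper part of the day 7 range or above it. The differences were 1.34 ± 0.42 for miR-764-3p and 1.57 ± 0.51 for miR-880 (SE; limma adjusted p = 0.547 for each, exact permutation p = 0.0159 for each). miR-880 belongs to an X-linked cluster expressed in testis, and its mean Ct of 35.8 was near the end of the 40 cycles. Of the 15 members of that cluster on the array, 9 were higher and 6 lower at day 15, with a median difference of 0.23. Of all 184 assays with a mean Ct above 30, 120 were higher and 64 lower, with a median of 0.28.

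**Figure D3:**
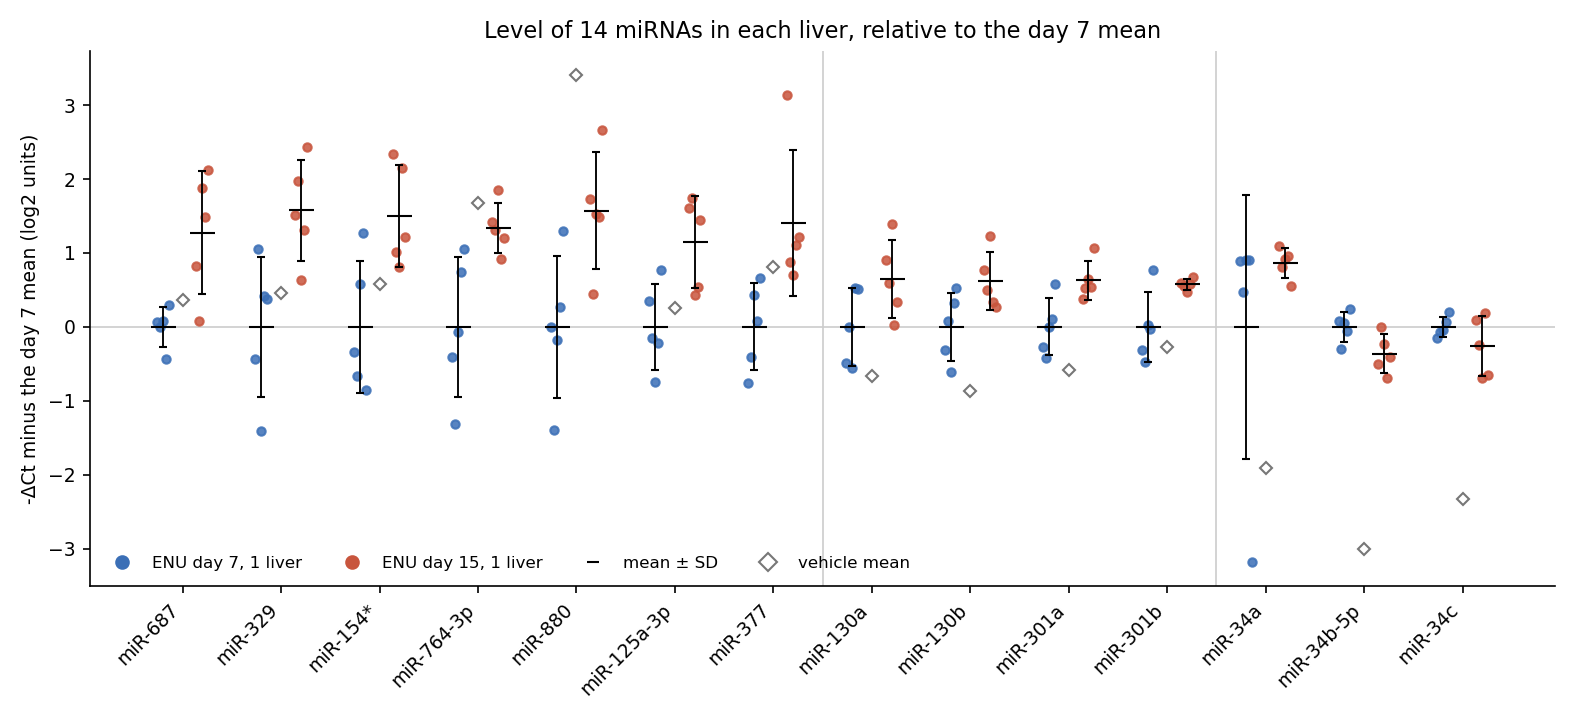
-ΔCt of 14 miRNAs in each liver minus the day 7 mean of that miRNA (log2 units). Blue points are the 5 livers of ENU day 7, red points the 5 livers of ENU day 15, black bars mean ± SD, and grey diamonds the mean of the 7 vehicle livers. The first 7 miRNAs are the 6 that met the DEM rule and miR-377, the next 4 the miR-130 and miR-301 family (differences of 0.58 to 0.65), and the last 3 the miR-34 family, in which 1 day 7 liver (replicate 5, at a -ΔCt of -2.51 before the day 7 mean of 0.67 is subtracted) stands far below the other 9 for miR-34a.

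Imprinted miRNAs of the Dlk1-Dio3 region made up 42 of the 376 assays and 7 of the 24 miRNAs with an unadjusted p below 0.05 (20 of 376 higher, 5.32%, and 4 lower, 1.06%). This region on chromosome 12 expresses its miRNAs from the maternal chromosome, mainly in embryo, placenta and brain, and at low levels in adult liver. Of its 42 assays, 32 were higher at day 15 and 10 lower, beside 270 and 106 of all 376, with a median difference of 0.48 beside 0.18 for all miRNAs and 0.28 for all assays with a mean Ct above 30. At an unadjusted p below 0.05 there were 6 higher (miR-329, miR-154*, miR-543, miR-377, miR-541 and miR-411) and 1 lower (miR-380-3p), and 0 passed the adjustment. The median was 0.37 against the median Ct, with 30 of 42 higher. The mean Ct of the 42 assays ran from 27.2 to 35.3, and 6 were at 30 or below. The median difference of those 6 was 0.19.

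miR-377 was the only miRNA of the 376 (0.266%) whose 2 groups did not overlap with the reference RNAs. Its -ΔCt was -12.28, -11.93, -11.09, -11.44 and -10.85 at day 7 and -8.39, -10.64, -10.82, -10.41 and -10.30 at day 15. The lowest day 15 liver (-10.82) and the highest day 7 liver (-10.85) were nearly equal, and day 15 replicate 1 stood well above the rest. The difference was 1.41 ± 0.47 (SE; limma adjusted p = 0.547) and the exact permutation p of 0.00794 is the smallest that 5 against 5 livers can give. Without day 15 replicate 1 the difference was 0.98.

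miR-329 read -10.68, -9.19, -11.64, -9.82 and -9.85 at day 7 and -8.73, -8.26, -9.60, -8.92 and -7.79 at day 15. miR-154* read -10.76, -11.08, -9.84, -9.15 and -11.27 at day 7 and -8.09, -9.40, -9.62, -8.28 and -9.20 at day 15. For both, 1 day 7 liver reached into the day 15 range, replicate 2 for miR-329 and replicate 4 for miR-154*. The differences were 1.58 ± 0.48 and 1.50 ± 0.47 (SE; limma adjusted p = 0.547 for each), with exact permutation p-values of 0.0159 and 0.0397. The vehicle means of -9.78 ± 1.01 and -9.84 ± 0.58 (SD, 7 livers) lay between those of the 2 days. miR-543 (1.28 ± 0.43), miR-541 (1.42 ± 0.49) and miR-411 (1.01 ± 0.40) gave exact permutation p-values between 0.0317 and 0.0476. For miR-411 the vehicle livers averaged -7.06 ± 0.39, day 7 -8.31 ± 0.71 and day 15 -7.30 ± 0.59 (SD). The opposite difference of miR-380-3p was -1.29 ± 0.54 (SE) at a mean Ct of 35.3.

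RefSeq hairpins placed 39 of the 42 assays on chromosome 12. The widest gap between neighbouring hairpins (91.9 kb) separates an upstream group of 13 assays, from miR-770 to miR-370, from a downstream group of 26, from miR-411 to miR-369. The 7 members with a p below 0.05, in either direction, all lie downstream. The median difference was 0.60 downstream (19 of 26 higher) and 0.33 upstream (10 of 13 higher), and the difference between the groups, which were drawn after the values were known, was not tested. The median Ct was 32.4 downstream and 31.4 upstream.

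**Figure D4:**
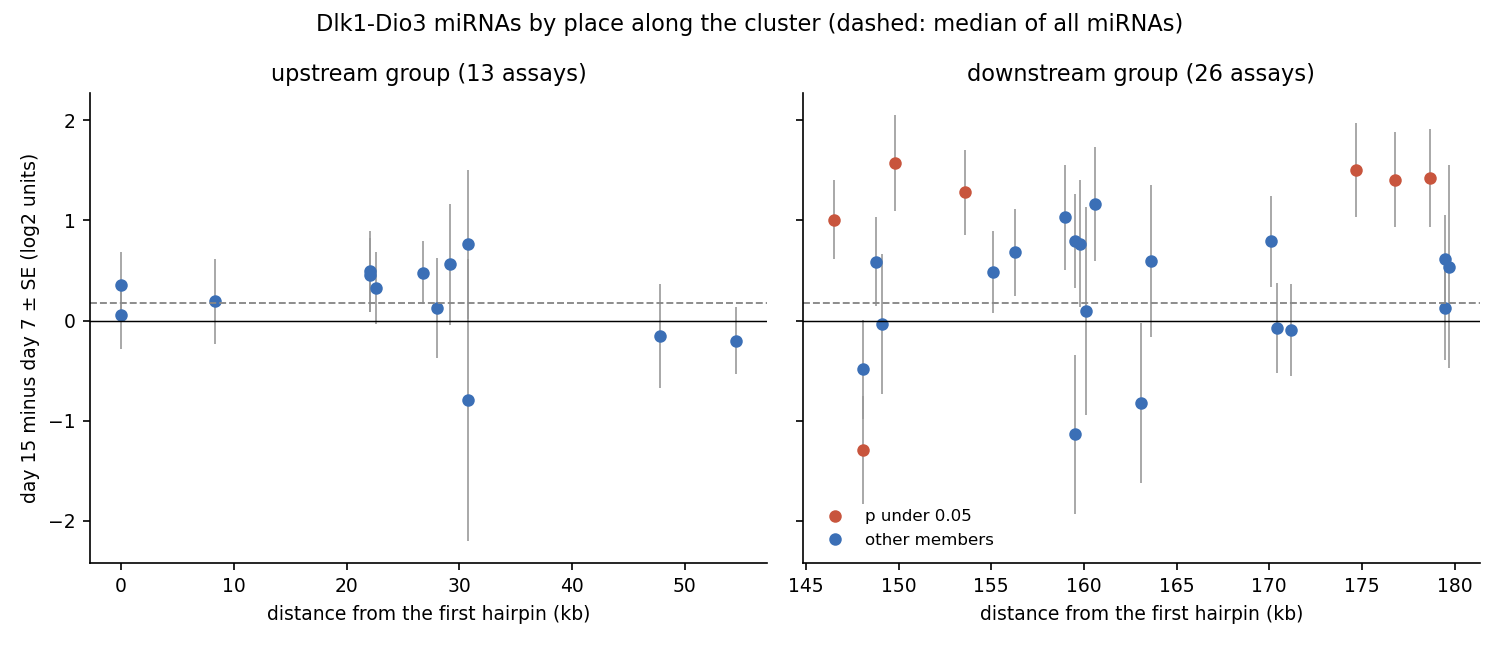
Difference in -ΔCt between day 15 and day 7 ± SE (log2 units) for 39 Dlk1-Dio3 assays by distance of the hairpin from the first one (kb), in the upstream group of 13 (left) and the downstream group of 26 (right). Red points have an unadjusted p below 0.05 and the dashed line is the median of all miRNAs (0.18). The 6 red points at 1.01 or more and the 1 below 0 all lie in the downstream group.

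Among miRNAs that were measured well, the 4 members of the miR-130 and miR-301 family had similar differences. These miRNAs come from several loci, share 1 seed and are known to act on growth and TGF-beta signalling genes. All 4 were higher at day 15, by 0.65 ± 0.34 for miR-130a, 0.62 ± 0.30 for miR-130b, 0.63 ± 0.26 for miR-301a and 0.58 ± 0.26 for miR-301b (SE). Of all 192 assays with a mean Ct up to 30, 150 were higher, with a median difference of 0.16. None of the 4 passed the adjustment (limma adjusted p between 0.686 and 0.784). The 4 differences against the median Ct ran from 0.46 to 0.53. Whether the assays separate members with near-identical sequences was not tested.

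For miR-301a the livers read -5.13, -5.28, -4.86, -4.75 and -4.28 at day 7 and -4.48, -4.33, -4.21, -4.32 and -3.79 at day 15. For miR-301b they read -5.58, -5.75, -5.25, -5.30 and -4.51 at day 7 and -4.69, -4.72, -4.80, -4.70 and -4.60 at day 15. In both, day 7 replicate 5 reached the day 15 levels and the other 4 day 7 livers lay below every day 15 liver. The exact permutation p-values were 0.0317 and 0.0476. With the median Ct as reference the groups of miR-301a did not overlap (0.51, 95% interval 0.21 to 0.82, limma adjusted p = 0.368), as for 6 miRNAs of the 376 in all (1.60%): miR-301a, miR-125a-3p, miR-193b and miR-377 higher, and miR-34b-5p and miR-380-3p lower.

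miR-130a read -2.67, -2.17, -2.74, -1.64 and -1.66 at day 7 and -1.27, -1.59, -0.78, -2.15 and -1.84 at day 15. miR-130b read -3.83, -3.43, -4.13, -3.20 and -2.99 at day 7 and -2.75, -3.02, -2.29, -3.18 and -3.25 at day 15. The days overlapped more here, since day 15 replicates 4 and 5 lay within the day 7 range for both, and replicate 2 too for miR-130b. The vehicle livers averaged -2.84 ± 0.67 for miR-130a, -4.39 ± 0.60 for miR-130b, -5.44 ± 0.54 for miR-301a and -5.55 ± 0.36 for miR-301b (SD, 7 livers), below the day 7 mean in each case.

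miR-34b-5p and miR-34c, p53 targets of the miR-34 family, stood far above vehicle on both days, though the vehicle arrays shared no run day with these. miR-34b-5p averaged -3.15 ± 0.20 at day 7 and -3.51 ± 0.26 at day 15 against -6.15 ± 0.36 in vehicle livers, and miR-34c -6.87 ± 0.13 and -7.13 ± 0.41 against -9.19 ± 0.49 (SD). Per liver, miR-34b-5p read -3.08, -3.45, -3.10, -3.21 and -2.91 at day 7 and -3.65, -3.15, -3.38, -3.84 and -3.56 at day 15. The day 15 livers lay lower, with replicates 2 and 3 inside the day 7 range, and the difference was -0.36 ± 0.23 (SE, 95% interval -0.86 to 0.13, exact permutation p = 0.0476, limma adjusted p = 0.906). With the median Ct as reference it was -0.48 (95% interval -0.86 to -0.10, limma adjusted p = 0.411), with no overlap between the days. miR-34c, made from the same transcript as miR-34b, differed by -0.26 ± 0.25 (SE, 95% interval -0.81 to 0.29). Its difference was -0.15 without day 15 replicate 3 and -0.37 without day 15 replicate 4. miR-34b-3p, the other arm of the miR-34b hairpin, averaged -8.64 ± 0.24 at day 7 and -7.99 ± 0.81 at day 15 against -8.42 ± 0.47 in vehicle livers (SD), a difference of 0.65 ± 0.37 (SE, 95% interval -0.17 to 1.46) at a mean Ct of 30.7.

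miR-34a, from its own locus on chromosome 4, read 1.56, 1.15, 1.58, 1.58 and -2.51 at day 7 and 1.76, 1.49, 1.59, 1.63 and 1.23 at day 15, against -1.24 ± 0.43 in vehicle livers (SD, 7 livers). Day 7 replicate 5 lay below the vehicle mean, while the other 9 livers lay between 1.15 and 1.76. The difference of 0.87 ± 0.70 (SE) became 0.07 without that liver. The miR-34b-5p (-2.91) and miR-34c (-6.67) of that same liver were the highest of the 5 day 7 values. miR-449a, which shares the miR-34 seed and is known from ciliated cells, differed by 1.38 ± 0.51 (SE, limma adjusted p = 0.66) at a mean Ct of 32.7, with 1 day 15 well missing from its fit, and by -0.26 when that well was given a Ct of 40. miR-449b differed by 0.39 and miR-449c by -0.13.

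The 3 members of the miR-200 family on the list, which maintain the epithelial state, were all higher at day 15, by 0.53 ± 0.34 for miR-200a, 0.49 ± 0.35 for miR-141 and 0.61 ± 0.34 for miR-429 (SE), beside 270 of all 376 assays that were higher. The star arms miR-200c* and miR-200b* differed by -0.57 and 0.45. The difference of miR-200a was 0.31 without day 7 replicate 2 and that of miR-141 was 0.29 without day 15 replicate 3. miR-429 read -5.04, -5.81, -4.86, -5.15 and -4.19 at day 7 and -4.94, -4.04, -4.13, -4.95 and -3.98 at day 15. Day 15 replicates 1 and 4 lay within the day 7 range and the other 3 above it. The differences against the median Ct were 0.42, 0.37 and 0.49. The vehicle means of miR-200a (-3.28 ± 0.90) and miR-429 (-4.60 ± 1.13; SD, 7 livers) lay above the day 7 means of -3.89 and -5.01, and that of miR-141 (-7.46 ± 0.82) lay below its day 7 mean of -7.20.

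Erythroid miRNAs, which mark red cell precursors and blood in the tissue, were higher at day 15 in all 3 cases, beside 150 of the 192 assays with a mean Ct up to 30. Of the 3, 0 passed the adjustment, and miR-486 was not higher without day 15 replicate 5 (-0.0234) or without the 2 arrays (-0.14). miR-144 read -5.67, -5.52, -5.24, -4.68 and -4.92 at day 7 and -4.11, -5.02, -4.33, -4.35 and -4.51 at day 15, so that only day 15 replicate 2 fell within the day 7 range. Its difference was 0.74 ± 0.28 (SE, limma adjusted p = 0.66, exact permutation p = 0.0238), and vehicle livers averaged -5.99 ± 0.66 (SD, 7 livers). miR-451, made from the same transcript as miR-144, differed by 0.33 ± 0.33 (0.14 without day 7 replicate 2) and miR-486 by 0.27 ± 0.45 (SE).

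Hepatocyte miRNAs and the let-7, miR-17-92, miR-15 and miR-30 groups showed small median differences. Among the 6 hepatocyte miRNAs the median was 0.04, with miR-192 at -0.01 (95% interval -0.64 to 0.62) and miR-194 at -0.04 (-0.78 to 0.70), both of which are also p53 targets. miR-122 read 7.83, 6.98, 7.97, 7.75 and 8.34 at day 7 and 3.29, 7.80, 7.70, 7.60 and 8.66 at day 15, so its difference of -0.76 ± 0.84 (SE) came from day 15 replicate 1 and was 0.17 without it. In that liver miR-192 read 4.75 and miR-194 4.64, against 4.73 to 5.64 and 5.15 to 6.11 in the other 4 day 15 livers. let-7 family differences had a median of 0.08 (7 of 9 higher), the miR-17-92, miR-106a-363 and miR-106b-25 clusters 0.11 (10 of 12 higher), the miR-15 and miR-16 family 0.20 (6 of 6) and the miR-30 family 0.18 (5 of 5). Over all miRNAs the median was 0.18, and 270 of 376 were higher. With the median Ct as reference the medians of the 4 groups were -0.03, -0.01, 0.08 and 0.07. miR-21, which is linked to liver injury and growth, differed by 0.11 ± 0.35 (SE, 95% interval -0.65 to 0.88), and miR-762 by 0.31 ± 0.37 (SE; 0.11 without day 7 replicate 2).

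Markers of other cells of the liver also lay close to the median of all miRNAs. The 8 immune cell miRNAs had a median difference of 0.17 (range -0.25 for miR-146a to 0.27 for miR-223), and the 5 endothelial and stromal miRNAs 0.27 (0.09 for miR-199b to 0.29 for miR-214). The difference of miR-214 was 0.15 and that of miR-223 was 0.0199 without day 15 replicate 5 and that of miR-146a -0.0175 without day 7 replicate 5. Against the median Ct the medians were 0.05 and 0.16. miR-221 and miR-222, linked to hepatocyte proliferation, differed by 0.05 and 0.35, miR-29 members by between -0.09 and 0.34, and miR-181 members by at most 0.35. The difference of miR-222 was 0.21 without day 7 replicate 4. That of miR-29b was 0.18 without day 7 replicate 3, and that of miR-181d was 0.21 without day 7 replicate 2. The median was 0.18 for the miR-23, miR-27 and miR-24 clusters and 0.02 for the miR-183, miR-96 and miR-182 cluster. Of the 13 miRNAs of muscle, brain and pancreas, 10 had a mean Ct above 30 and the median difference was 0.10.

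**Figure D5:**
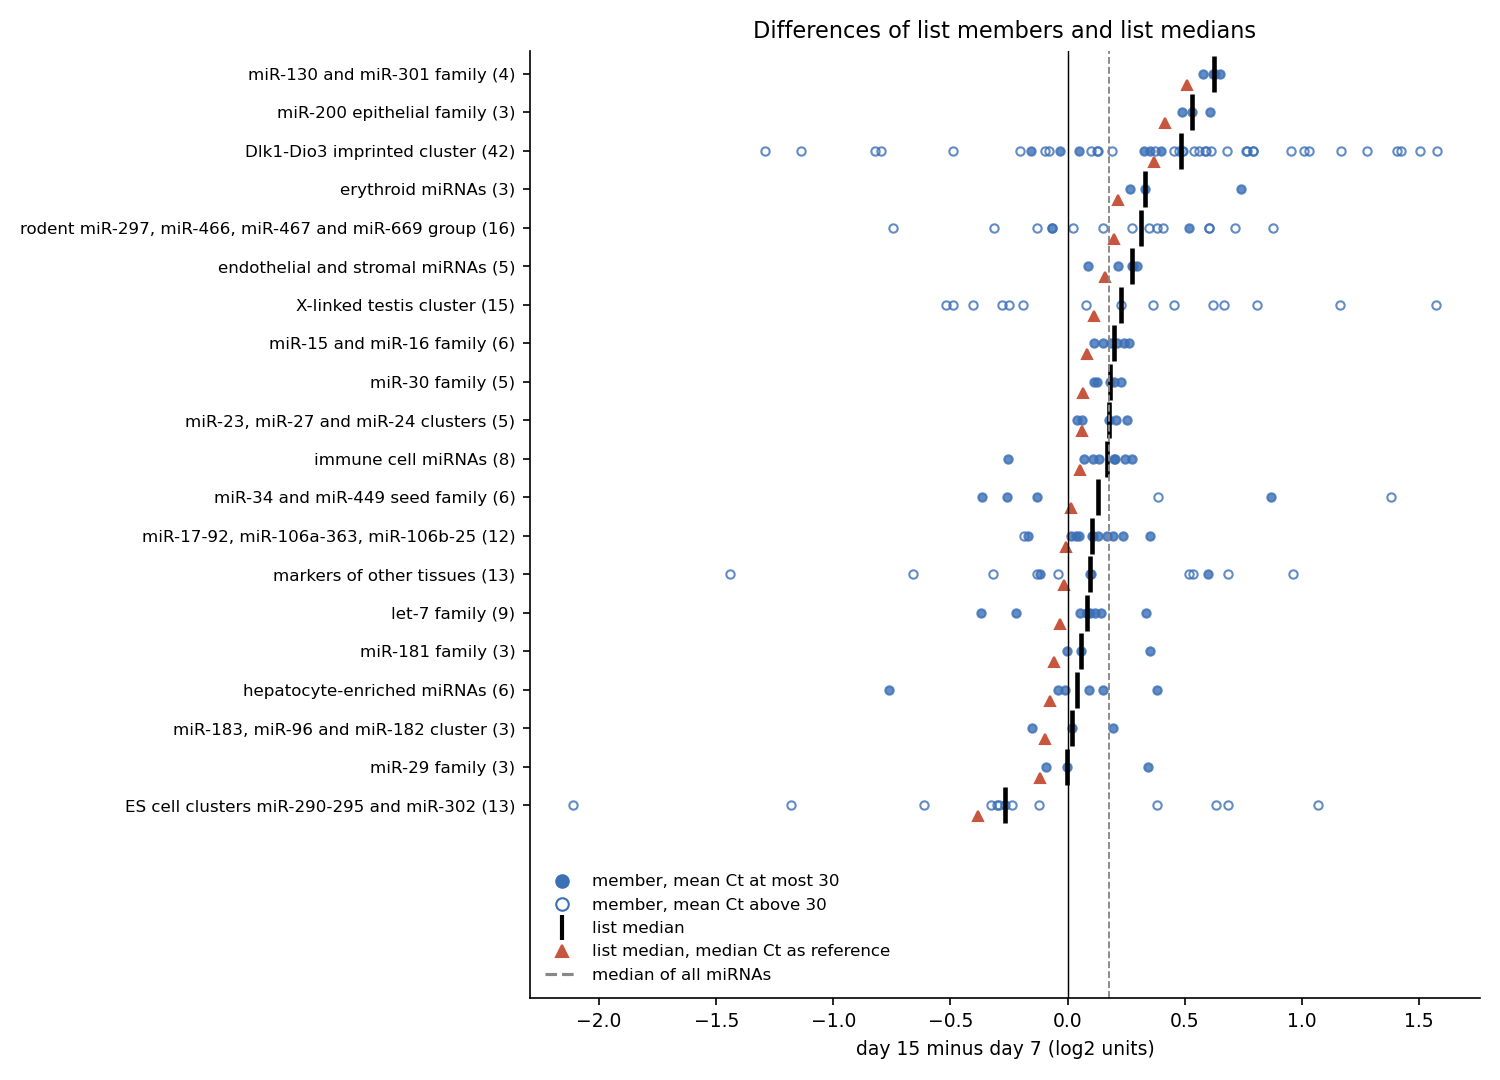
Difference in -ΔCt between day 15 and day 7 (log2 units) for the members of the 20 groups with 3 or more miRNAs (miR-221 and miR-222 are not drawn), with the number of members in parentheses. Filled points have a mean Ct up to 30, open points a higher one. Black bars are group medians with the 4 reference RNAs, red triangles group medians with the median Ct as reference, and the dashed line is the median of all miRNAs (0.18). Of the 20, the miR-130 and miR-301 group has the highest median (0.63) and the embryonic stem cell clusters the lowest (-0.27).

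The embryonic stem cell clusters of miR-290 and miR-302, which are silent in most adult tissue, had the lowest median of the groups with both references (-0.27 and -0.38). All 13 assays had a mean Ct above 30, with 9 lower and 4 higher at day 15, beside 64 lower and 120 higher of all 184 assays above that Ct. The rodent miR-297, miR-466, miR-467 and miR-669 miRNAs, of which 2 had a mean Ct up to 30, had 11 of 16 members higher, beside 270 of all 376 (median 0.31, 0.20 with the median Ct). They ran from miR-467b* at -0.75 ± 0.32 (SE, limma adjusted p = 0.686) to miR-466f-5p at 0.88 ± 0.30 (SE, limma adjusted p = 0.547). miR-292-3p, at a mean Ct of 32.8, read -9.18, -10.88, -9.05, -8.87 and -9.01 at day 7 and -15.24, -11.40, -10.20, -10.99 and -9.70 at day 15. All day 15 livers lay below 4 of the day 7 livers, and day 15 replicate 1 was near the end of the cycles. The difference was -2.11 ± 0.90 (SE, limma adjusted p = 0.686) and -1.18 without that liver. miR-196a, a Hox cluster miRNA, was the lower miRNA with the smallest p. It averaged -9.66 ± 0.61 at day 7, -10.58 ± 0.49 at day 15 and -9.55 ± 0.77 in vehicle livers (SD), with a difference of -0.92 ± 0.35 (SE, limma adjusted p = 0.66).

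Some of the largest differences at a mean Ct up to 30 moved when 1 liver was left out, while that of miR-125a-3p stayed between 0.96 and 1.34. miR-421 read -5.12 to -5.18 in 4 day 15 livers and -11.38 in replicate 5, which gave a difference of -1.10 ± 1.09 (SE), and 0.15 without that liver. For miR-877 the difference of 1.12 ± 0.57 fell to 0.54 without day 7 replicate 2, and for miR-700 the difference of 1.07 ± 0.58 (SE) became 1.66 without day 15 replicate 3. miR-138 was more even, with -5.91, -6.70, -6.34, -6.18 and -5.42 at day 7 and -5.53, -5.71, -5.09, -5.80 and -4.83 at day 15, a difference of 0.72 ± 0.31 (SE, exact permutation p = 0.0397, limma adjusted p = 0.686). In all, 38 wells of the 10 arrays lay more than 3 cycles from the median of the same day's other livers.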

How the data were processed

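Ct values of 10 SABiosciences 384-well mouse miRNA PCR arrays (SYBR Green, 40 cycles) were used as the authors deposited them, with a threshold of 0.15 per the labels, and were read from the Ct column. These Ct values are not log ratios and have no read depth; the number of cycles and of livers limits the precision. Wells were named from the miRNA column of the study's additional table, whose values were not used. -ΔCt was computed against the mean Ct of the 4 reference RNAs of the same array, with Undetermined wells missing. Day 15 (5 livers) was compared with day 7 (5 livers) with limma 3.58.1 in R 4.3.3 (lmFit and eBayes, two-sided, Benjamini-Hochberg over 376 miRNAs), checked on simulated data, in place of the study's unmoderated test. Two-sided exact permutation tests used the 252 arrangements of 10 livers (smallest p 0.00794). Groups of miRNAs (21, with 182 members) were described by counts and medians only. The miRNAs and groups were chosen with earlier results of these data known.

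Named miRNAs were those with an adjusted p below 0.05, those that met the DEM rule, the 15 with the lowest p, miR-34a, miR-34b-5p, miR-34c, miR-122, miR-21, miR-222 and miR-762, the 5 largest differences at a mean Ct up to 30, and the lowest and highest member of each group at that Ct. Names outside this rule (among them miR-301a, miR-130b, miR-200a, miR-451, miR-129-3p, miR-671-3p, miR-292-3p, miR-138, miR-34b-3p, miR-719, miR-200b*, miR-200c* and further list members) were chosen after their values were seen. Of the array names, 104 equal a RefSeq mature name; 20 were matched by hand to an arm. Figures were drawn with matplotlib 3.10.9 in Python 3.11.15. Alternatives changed the reference, the handling of late wells, the test, the livers and the covariates. Replicate numbers did not pair the livers.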

Additional observations from a re-analysis of the deposited data

Results flagged for a closer look

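Single livers stood apart from the other 4 of their day by Dixon's test in 18 of the 140 groups of values examined (66 named miRNAs and 4 array measures on each day), where chance marks about 1 in 20. Some of the 66 were named for large differences or after their values were seen. Over all 376 miRNAs the same test marked 23 at day 7 and 47 at day 15. In day 15 replicate 5 the 4 reference RNAs averaged 23.5 cycles, against 22.1 to 22.4 in the other livers of that day. In the same liver, -ΔCt was high for miR-21 (6.37 against 5.14 to 5.46), miR-23b (3.61 against 2.48 to 2.68), miR-98 (-0.11 against -1.29 to -1.10), miR-183 (-3.70 against -4.94 to -4.70) and miR-666-3p (-6.38 against -7.81 to -7.41), and low for let-7f (3.16 against 4.53 to 5.04) and miR-421 (-11.38 against -5.18 to -5.12).

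In day 15 replicate 4, miR-129-3p gave a -ΔCt of 8.47 (a Ct of 13.6 cycles), against -11.77 to -10.11 in the other 4 livers. The difference between the days for this miRNA was 5.01 with that liver and 1.14 without it. The same liver was low for miR-19b (-0.085 against 1.86 to 2.58) and miR-449a (-10.77 against -9.28 to -9.03). Day 15 replicate 1 was low for miR-122 (3.29 against 7.60 to 8.66) and high for miR-377 (-8.39 against -10.82 to -10.30). Day 15 replicate 2 was high for miR-196a (-9.71 against -10.92 to -10.63), and day 15 replicate 3 was low for miR-700 (-6.40 against -3.85 to -3.07).

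At day 7, replicate 5 was low for miR-34a (-2.51 against 1.15 to 1.58), and replicate 2 was low for miR-292-3p (-10.88 against -9.18 to -8.87) and for miR-877 (-7.93 against -5.37 to -4.51).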

How the results depend on the processing

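No alternative gave a miRNA with an adjusted p below 0.05, including the methods' test, the median Ct of the array as reference and the fit with the replicate block (lowest adjusted p 0.0624). For the exact permutation test, whose smallest possible p is 0.00794, this was close to fixed in advance. The 6 miRNAs of the DEM rule became 10 without snoRNA251 as a reference, 2 without snoRNA202, 3 without snoRNA142, 2 without U6, 1 with only miRNAs of a mean Ct of at most 30 (fewer were tested), 1 with the exact permutation test, 0 with the methods' test and 3 in 1 fit of all 7 groups, and ranged from 1 to 10 over single livers left out. The replicate block gave 6, of which 5 were shared, and 172 in place of 145 intervals within a 2-fold difference. Same-numbered livers did not vary together (correlations of -0.0652 to 0.0983), and 1 of the 5 day 7 livers correlated best with its own number. The difference of 0.27 between the mean array medians of the 2 days was 0.41 without snoRNA251 (exact permutation p = 0.0397), -0.0018 without day 7 replicate 2 and day 15 replicate 5 (an alternative chosen after seeing the data, which could only lower the difference), and 0.13 to 0.38 over single livers left out. A block for run day was not run, because no run day held both groups. The cause of these changes was not tested. Of 1569 recomputed differences of the 66 named miRNAs, 64 changed sign. They did so with the median Ct as reference for miR-21 (-0.000994), miR-199b (-0.0262), miR-221 (-0.0656), miR-27a (-0.0726) and miR-30c (-0.000553), without U6 for miR-21 (-0.0182), miR-199b (-0.0435), miR-15a (-0.0171), miR-221 (-0.0829), miR-27a (-0.0898) and miR-30c (-0.0178), without snoRNA251 for miR-375 (0.0274), miR-181c (0.14), miR-29a (0.0529), miR-466f-3p (0.0775) and miR-671-3p (0.11), with a Ct of 40 for missing wells for miR-449a (-0.26), with the gap between the 2 reverse transcription control wells as covariate for miR-181c (0.0223), and without the 2 arrays for miR-21 (-0.35), miR-762 (-0.0929), miR-666-3p (-0.0233), miR-199b (-0.28), miR-486 (-0.14), miR-223 (-0.23), miR-98 (-0.0359), miR-183 (-0.20), miR-27a (-0.23), miR-23b (-0.13), miR-30c (-0.0162) and miR-30d (-0.10). Over single livers left out the ranges that crossed 0 were miR-122 -1.18 to 0.17, miR-181c -0.11 to 0.0925, miR-183 -0.0296 to 0.36, miR-199b -0.10 to 0.34, miR-19b -0.39 to 0.28, miR-21 -0.13 to 0.28, miR-221 -0.0677 to 0.15, miR-27a -0.10 to 0.19, miR-341 -0.43 to 0.32, miR-375 -0.43 to 0.35, miR-421 -1.41 to 0.15, miR-466f-3p -0.20 to 0.0352, miR-486 -0.0234 to 0.58, miR-671-3p -0.78 to 0.29 and miR-96 -0.25 to 0.0276. Of the 184 assays with a mean Ct above 30, 13 had an interval within a 2-fold difference. Over all miRNAs the number of such intervals was 145, 189 with the median Ct as reference, 101 without snoRNA202, and 99 to 164 over single livers left out.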

Other observations

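The comparison of the spread between livers on the 2 days depended on the reference. With the 4 reference RNAs, over all 376 miRNAs the median SD of -ΔCt was 0.53 at day 7 and 0.57 at day 15, and it was 0.45 and 0.44 over the 192 assays not above 30 cycles. With the median Ct of the array as reference the 2 medians over all miRNAs were 0.36 at day 7 and 0.50 at day 15, and 130 of the 376 miRNAs had the larger SD at day 7 (55 of the 192 not above 30 cycles). miR-671-3p read -5.53 to -4.19 in 4 day 15 livers and -1.23 in replicate 5, which brought its mean difference to -0.03, and it was -0.78 without that liver.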
